A study of Saccharomyces cerevisiae with 6 samples.

Results

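Yeast stores glucose as glycogen, and the 10 genes described here encode the enzymes that build and degrade it and the subunits that bring protein phosphatase 1 to it. They were chosen by name from the 6212 identifiers of the array table, with earlier results of these data known. All 10 are described whatever their values. GSY1 (YFR015C) and GSY2 (YLR258W) encode glycogen synthases, GLG1 (YKR058W) and GLG2 (YJL137C) the self-glucosylating primers, and GLC3 (YEL011W) the branching enzyme. GPH1 (YPR160W) and GDB1 (YPR184W) encode glycogen phosphorylase and the debranching enzyme. GAC1 (YOR178C), PIG2 (YIL045W) and GIP2 (YER054C) encode subunits that target Glc7, the catalytic subunit of protein phosphatase 1, to glycogen and its synthase.

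Glycogen synthase is active when dephosphorylated, and Glc7 bound to Gac1 is the phosphatase best known to activate it. Phosphorylation has the opposite effect on the phosphorylase. In budding yeast the reserve builds up as glucose runs low or under stress, and several of these genes are known to be transcribed more at that point.

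The cells were of 1 strain, mmr09-4 in the cml476 background, in which a kanMX4-tetO7 cassette stands in front of the coding region of YPI1, so that doxycycline shuts the gene off. Ypi1 is another regulatory subunit of Glc7, and its part in mitosis is the question named in the study's title. Treated cells grew in YPD, a rich glucose medium, with 100 µg/ml doxycycline in an ethanol and water mix for 2, 4 or 6 h, and control cells of the same strain grew for the same times with the mix alone. Each time had 1 pair of RNA samples, hybridised on 2 two-colour arrays with the dyes swapped, which makes 6 arrays. Every sample, treated or not, carried the tetO7 promoter, and no strain with the native YPI1 promoter was among the samples, so an effect of doxycycline itself cannot be told apart from that of the shut-off.

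Values are log2 ratios of treated over untreated cells, so 1 stands for a 2-fold higher and −1 for a 2-fold lower signal. The mean ± SD of a time is over its 2 arrays and is technical. No p could be had for a single time, and sign changes over 3 RNA pairs cannot give a two-sided p below 0.25. Ratios compare RNA from whole cultures, so a shift in the mix of cells and a change of RNA per cell cannot be told apart. The arrays held values for 4250 to 4804 genes. YPI1 was below 0 on all 6 arrays, with means for the 3 times of −4.39 ± 0.48, −5.48 ± 0.23 and −6.30 ± 0.19.

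The glycogen genes were thinly measured. Of the 10, GSY2, GLC3 and GDB1 had a value on all 6 arrays, and GPH1 had none, as was true of 907 of the 6212 identifiers. Together they filled 53.3% of their places in the table, against 73.9% for all genes. The authors left out small and dim spots, per the description in the labels, and a missing value says nothing of the direction of a change. GSY1, GAC1 and PIG2 were measured on replicate 1 of 6 h and nowhere else, a pattern shared by 38 genes, or 0.612% of the table. GLG1 lacked replicate 2 of 6 h, GIP2 both arrays of 6 h, and GLG2 every array after 2 h.

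At 2 and 4 h the glycogen genes lay close to untreated cells and their dye-swapped arrays mostly disagreed in sign, while at 6 h the values at hand were above 0. Those of GSY1, GAC1 and PIG2 have no earlier value beside them and cannot show a change from 2 and 4 h. None of the 6 members measured on both arrays at 2 h passed a 2-fold rule, which asked for a mean of at least 1 in size with 1 sign on both arrays, and none of 5 did at 4 h. Of all genes 0% passed it higher and 0.0486% lower at 2 h, and 0% and 0.064% at 4 h. At 6 h GLC3 passed it, 1 of 3 members, all 3 of them enzymes, against 9.81% of 4160 genes. The median of the members was 0.05 at 2 h (6 genes), 0.03 at 4 h (5 genes) and 0.97 at 6 h (3 genes), where all genes had −0.01, 0.01 and −0.10. Being above 0 on both arrays was common at 6 h, with 39.4% of all genes, and the 3 members were also long genes at a time when long genes had high ratios.

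**Figure D1:**
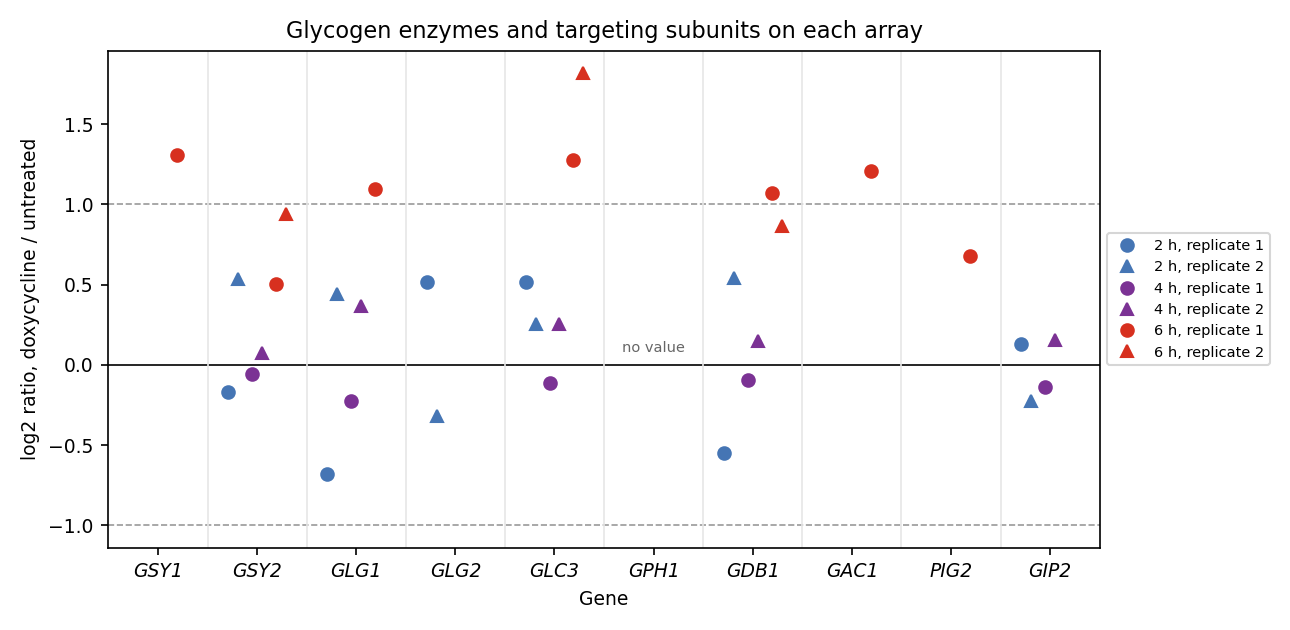
Log2 ratio of doxycycline over untreated cells (vertical axis) for the 10 glycogen genes (horizontal axis), with 1 point per array, circles for replicate 1, triangles for replicate 2 and colours for 2, 4 and 6 h. Dashed lines mark 2-fold, and the 6 h points lie between 0.50 and 1.82 while the 2 and 4 h points lie between −0.68 and 0.54. GSY1, GAC1 and PIG2 have no point before 6 h.

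Of the synthases, GSY2, which provides most glycogen synthase activity in yeast, could be followed through all times. Its log2 ratio was −0.17 and 0.54 on the arrays of 2 h, −0.06 and 0.08 on those of 4 h, and 0.50 and 0.94 on those of 6 h. The earlier times held both signs, and both 6 h arrays were above 0, the lower of them just under the higher 2 h array. Its means for the 3 times were 0.18 ± 0.50, 0.01 ± 0.09 and 0.72 ± 0.31, the last of them 1.65 times the untreated level. GSY1, the minor synthase, had 1.31 on replicate 1 of 6 h, its single value, which was 0.80 above GSY2 on the same array. GSY1 and GSY2 are paralogs, and how far their spots share signal was not tested.

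GLC3, whose enzyme makes the branches of glycogen, had the highest 6 h ratio of the members measured on both arrays. Its arrays gave 0.52 and 0.25 at 2 h, then −0.11 and 0.26 at 4 h, then 1.28 and 1.82 at 6 h. GLC3 was the 1 member of 6 above 0 on both arrays of 2 h, where 16.8% of 4119 genes were, and its 6 h arrays lay above all its earlier ones. The mean was 0.38 ± 0.19, 0.07 ± 0.26 and 1.55 ± 0.38 at 2, 4 and 6 h, and the 6 h value is 2.92 times untreated.

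GDB1, the debranching enzyme that works beside the phosphorylase, was the other member with 6 values. Its arrays gave −0.55 and 0.54 at 2 h, then −0.10 and 0.15 at 4 h, then 1.07 and 0.86 at 6 h. At 2 h its arrays were of nearly equal size and opposite sign, so the mean was 0.00 ± 0.77. At 4 h it was 0.03 ± 0.17 and at 6 h 0.97 ± 0.15, or 1.96 times untreated, just short of 2-fold. GPH1 has no value, so the phosphorylase side of degradation could not be described.

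The primers gave little beyond 2 h. GLG1 had −0.68 and 0.44 at 2 h, then −0.23 and 0.37 at 4 h, and 1.10 on replicate 1 of 6 h, which was above all 4 of its earlier values. GLG2 had 0.52 and −0.32 at 2 h, the opposite order of GLG1, and no later value. GLG1 was thus 1.19 below GLG2 on replicate 1 of 2 h and 0.76 above it on replicate 2, so their order was not settled.

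No targeting subunit was measured on both arrays of 6 h. GIP2 had 0.13 and −0.22 at 2 h and −0.14 and 0.15 at 4 h, means of −0.05 ± 0.25 and 0.01 ± 0.21. GAC1 had 1.21 and PIG2 0.68 on replicate 1 of 6 h, their single values, so no spread can be given for either.

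At 4 h the signs differed between the dye-swapped arrays. All 5 measured members (GSY2, GLC3, GDB1, GLG1 and GIP2) were below 0 on replicate 1, with doxycycline RNA in Cy5, and above 0 on replicate 2, with it in Cy3. Opposite signs on the 2 arrays were the rule across the table, with 64% of 4691 genes, and this order of signs was found in 29.5% of them. The 4 h ratios also went with gene length, with a Spearman correlation of −0.43 on replicate 1 and 0.19 on replicate 2. Opposite signs were left in 2 of the 5 members with a curve on length removed, and in 3 of 5 relative to genes of like length on the same chromosome. Of all genes, 63.4% and 61.8% still had opposite signs after these corrections, so the share in the whole table hardly moved. At 2 h 5 of 6 members had opposite signs, as did 66.5% of 4119 genes. GSY2, GDB1 and GLG1 had the same order as at 4 h, which 30% of all genes had at 2 h, while GLG2 and GIP2 had the reverse. Across all genes the 2 arrays of 2 h had a correlation of r = −0.40 and those of 4 h of −0.17, against 0.87 at 6 h, and genes are not independent replicates. Of the 6 pairs of arrays with doxycycline in the same dye, 5 had r above 0, from 0.22 to 0.58, and replicate 1 of 4 h with replicate 2 of 6 h had −0.25. The deposited direction was kept, since turning the Cy3 arrays would leave YPI1 at 0.34, 0.16 and 0.14. With that turn the 6 h values would be 0.22 for GSY2, 0.27 for GLC3 and −0.10 for GDB1.

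Over the 3 times none of the 3 testable members passed a limma test. The mean over the times was 0.67 (SE 0.31) for GLC3, 0.33 (SE 0.25) for GDB1 and 0.30 (SE 0.21) for GSY2, each with a limma adjusted p = 0.806. GLC3 was above 0 on 5 of 6 arrays and the other two on 4 of 6. The test of the mean called 0.0295% of 3391 genes. The slope on hours, on a line through 0 at the start, was 0.18 per hour (SE 0.05) for GLC3, 0.11 (SE 0.04) for GDB1 and 0.08 (SE 0.04) for GSY2, each with a limma adjusted p = 0.306. The slope test called 0.059% of the genes. Before adjustment the limma p of the slope was below 0.05 for GLC3 and GDB1 and not for GSY2, and it was below 0.05 for 14.3% of all genes. The unit is the RNA pair, and each pair had a different time in doxycycline, so these p-values do not measure the spread between biological replicates.

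At 6 h the ratios followed gene length across the whole table, and 9 of the 10 glycogen genes, all but GLG2 at 1143 bp, are longer than the median of 1236 bp over 5662 genes. The Spearman correlation of log2 ratio with annotated length was 0.67 over 4453 genes on replicate 1 and 0.58 over 3993 genes on replicate 2. The 7 members with a 6 h value are 1617 bp (PIG2) to 4611 bp (GDB1) long. On replicate 1, 4 members had a value there and on other arrays too, and all 4 were above 0 and 3 of them at least 2-fold higher, where 50.6% and 11% of all genes were. The other 3, GSY1, GAC1 and PIG2, had their single value on that array and are not counted against the background, since a spot that passes the filter on 1 array is not a fair sample of its values. The ratios also differed by chromosome, by a split taken from earlier results of these data. Genes of 2000 to 2300 bp on chromosomes X to XIII had a median of −0.53 (SD 0.51, 111 genes) on replicate 1, and those on the other chromosomes 1.08 (SD 0.59, 134 genes).

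**Figure D2:**
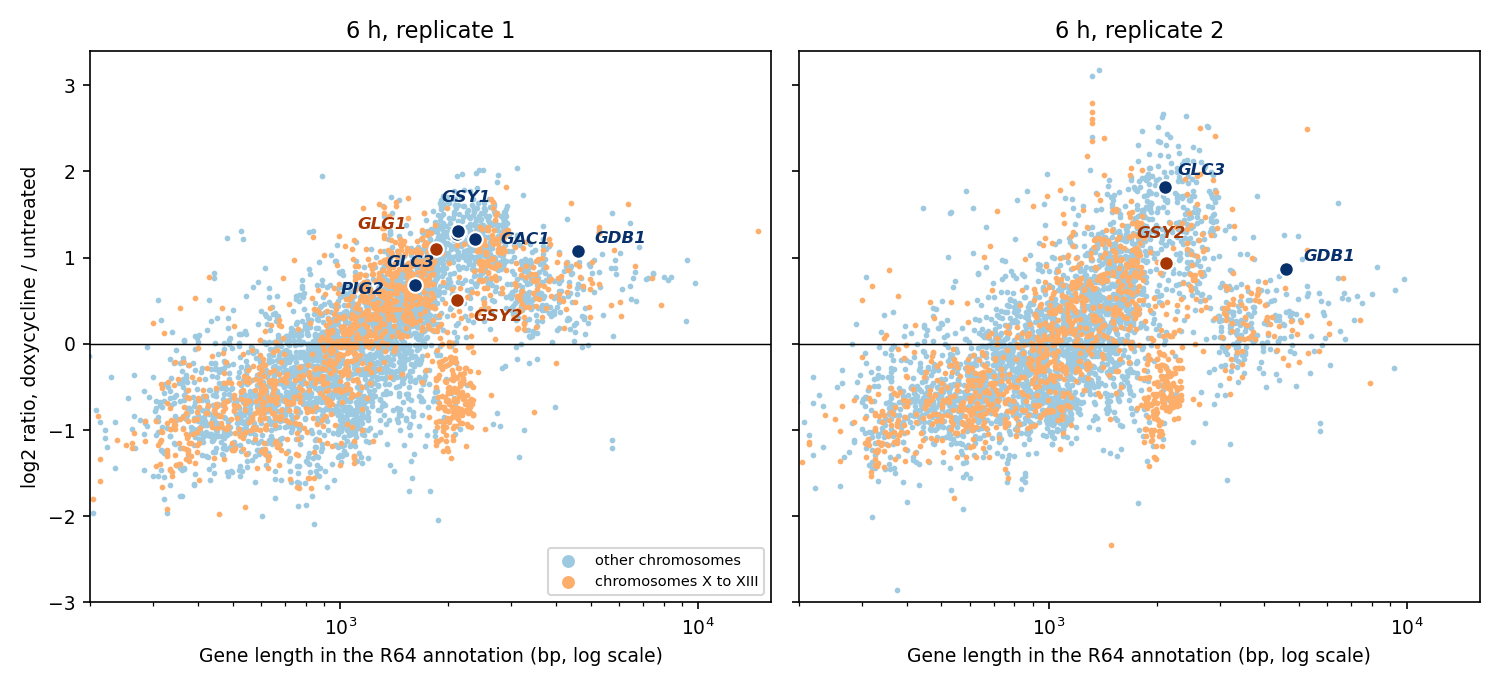
Log2 ratio at 6 h (vertical axis) against gene length in base pairs on a log scale (horizontal axis) for each gene on the 2 arrays, orange for chromosomes X to XIII and blue for the others, with the glycogen genes as large labelled points. Genes outside the axes, YPI1 among them, are not drawn, GSY1 and GLC3 overlap on replicate 1, and GSY2 at 0.50 and 0.94 lies above the low orange group of its own length.

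GSY1, GSY2 and GLC3 show how much this bears on the glycogen genes, because they are of almost the same length, 2127, 2118 and 2115 bp, on chromosomes VI, XII and V. Each was set against its matched genes, the 20 on its own chromosome that are closest to it in length, by their median. For GSY2 the matched genes were at −0.57 (SD 0.41) on replicate 1 and −0.46 (SD 0.49) on replicate 2, and GSY2 was 1.08 and 1.40 above them. For GLC3 they were at 1.18 (SD 0.46) and 1.43 (SD 0.82), and GLC3 was 0.09 and 0.39 above them. For GSY1 they were at 0.80 (SD 0.93), and GSY1 was 0.50 above them, but they ran from 1656 to 2562 bp. On chromosome VI the 6 genes of 2000 to 2300 bp, GSY1 among them, had a median of 1.17 on replicate 1. On chromosome V the genes of that length, GLC3 among them, had 1.23 on replicate 1 (10 genes) and 1.82 on replicate 2 (5 genes). These medians cover few genes and include the gene itself, and on replicate 2 GLC3 was the middle gene of its 5. They therefore cannot show how far GSY1 or GLC3 lay from other genes of that length.

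The order of the synthase and the branching enzyme thus turned with the correction. As deposited, GLC3 was above GSY2 by 0.83 ± 0.07 at 6 h, and relative to matched genes the difference was −0.996 ± 0.021, with GSY2 the higher. These SDs are technical and leave out the spread of the matched genes given above, so they do not settle which gene was higher. Relative to matched genes the 6 h values were 1.24 ± 0.23 for GSY2, 0.49 ± 0.11 for GDB1 and 0.24 ± 0.21 for GLC3. GSY2 was then the 1 member of 3 at least 2-fold higher, as were 2.7% of 3921 genes. Among genes of 2000 to 2300 bp on chromosomes X to XIII, 6 of the 110 others had a higher 6 h mean than GSY2, and among those on the other chromosomes 21 of 84 had a higher one than GLC3. A curve on length alone, blind to chromosome, left GSY2 at 0.01, GLC3 at 0.84 and GDB1 at 0.48. The arrays behind the 0.01 of GSY2 disagreed in sign, with −0.285 on replicate 1 and 0.303 on replicate 2.

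**Figure D3:**
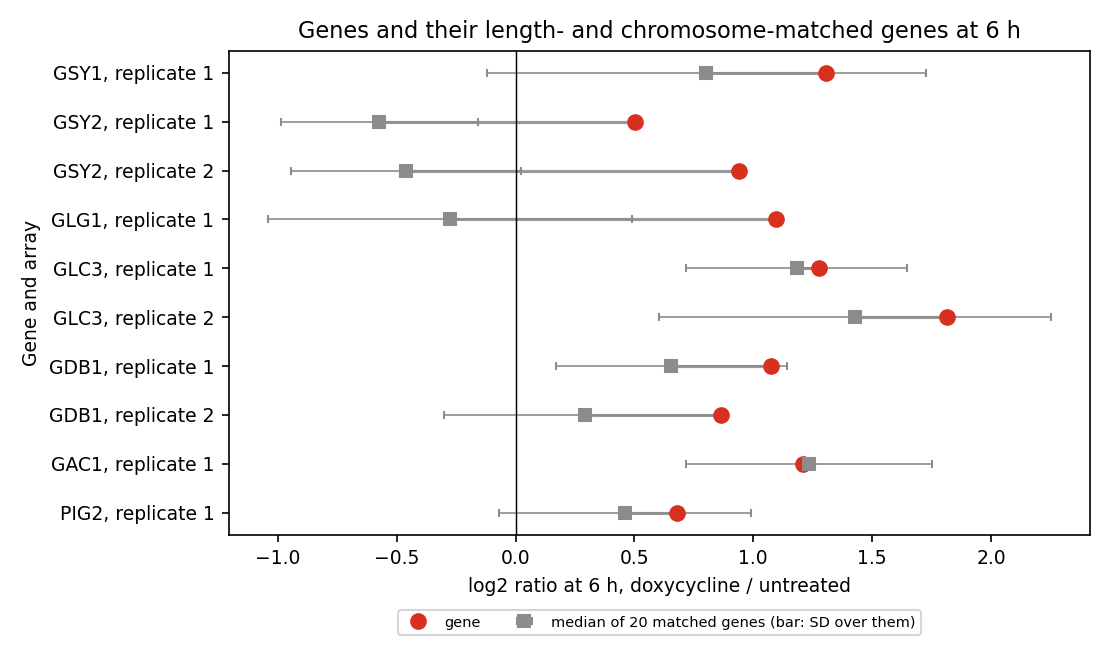
Log2 ratio at 6 h (horizontal axis) of each glycogen gene on each array that measured it (vertical axis, red circles), and the median of its 20 matched genes (grey squares, bars are the SD over those 20 genes). GSY2 and GLG1 lie to the right of their bars, while GLC3, GDB1, GAC1, GSY1 and PIG2 lie within them.

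The members seen at 6 h on replicate 1 alone also divided, GSY1 being given above. Of them GLG1 has earlier values, while PIG2, GAC1 and GSY1 have none. GLG1, 1851 bp on chromosome XI, was 1.37 above matched genes at −0.28 (SD 0.77), which ran from 1782 to 1932 bp. Slightly shorter genes of that chromosome, the 1593 to 1809 bp matched to PGM1 below, were at 0.86 (SD 0.31) on the same array. The 1.37 for GLG1 thus rests on the range of lengths taken. PIG2, 1617 bp on chromosome IX, was 0.22 above its own at 0.46 (SD 0.53), and GAC1, 2382 bp on chromosome XV, was 0.03 below its own at 1.24 (SD 0.52). The 4 members measured on other arrays too were above matched genes on replicate 1, as were 50% of all genes, and 3 of these 4 had a value on replicate 2 and were above there as well, as were 49.9%. GDB1 has few genes of its length on chromosome XVI, and its matched genes ran from 2691 to 5728 bp over the 2 arrays. Of the members, its difference is the least closely matched.

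Genes around glycogen synthesis that supply its substrate were also above 0 at 6 h. PGM1 and PGM2 encode the phosphoglucomutases and UGP1 the enzyme that makes UDP-glucose, the substrate of the synthases. All 3 passed the 2-fold rule at 6 h, with 1.00 ± 0.37, 1.34 ± 0.27 and 1.23 ± 0.11, beside the 9.81% of all genes. PGM2 was above 0 on 6 of 6 arrays and so was UGP1. Relative to matched genes they were at 0.20 ± 0.46, 0.60 ± 0.24 and 0.60 ± 0.16, and none passed the rule. Over the times the limma adjusted p of the mean was 0.806 for each.

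The kinases and cyclins that act on the synthase or its regulators had a median just below 0 at 6 h. Of the 8 listed, 6 were measured on both arrays of 6 h, none passed the 2-fold rule, and their median of −0.11 was close to the −0.10 of all genes. Relative to matched genes their median was −0.25. PHO85, a cyclin-dependent kinase that phosphorylates glycogen synthase, was at −0.68 ± 0.27, and its cyclins for that task, PCL8 and PCL10, were at −0.16 ± 0.27 and −0.07 ± 0.13. The PAS kinase genes PSK1 and PSK2 had both high and low arrays, with 0.39 ± 0.51 and 0.18 ± 0.51. Relative to matched genes PHO85 was at −0.14 ± 0.26, PCL8 at −0.24 ± 0.27 and PCL10 at −0.36 ± 0.02. PSK1 turned to −0.59 ± 0.61 and PSK2 to −0.26 ± 0.21. PSK1 is 4071 bp long, and its matched genes at 6 h were all shorter, from 1482 to 4068 bp. Its difference is thus not from genes of like length. SNF1, which encodes a kinase needed to accumulate glycogen, had no value.

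On the phosphatase side, PIG1, a relative of GAC1, had the lowest 6 h mean of the 12 pathway genes measured on both arrays. It was at −0.91 and −1.06 at 6 h, a mean of −0.99 ± 0.11, after −0.08 and 0.22 at 4 h and 0.06 on the 1 array of 2 h that measured it. PIG1 is 1947 bp long and lies on chromosome XII, where matched genes were at −0.53 on both arrays, and it was −0.45 ± 0.11 relative to them. GAC1 at 1.21 and PIG1 at −0.91 on the same array thus differed widely as deposited, while relative to matched genes they were at −0.03 and −0.38. GAC1 passed the spot filter on that array alone, so its value is not a fair sample and the contrast is not settled. GLC7 was at 0.14 ± 0.00 at 6 h, and −0.57 ± 0.29 relative to matched genes. GLC8, which encodes an activator of Glc7, was at 0.44 ± 0.45, and at 1.09 ± 0.57 relative to matched genes it was the 1 pathway gene past the 2-fold rule there, beside the 2.7% of all genes. SGA1, a glucoamylase of sporulation, had 1.12 on replicate 1 of 6 h and was not measured on the other. Of the 15 listed genes of the pathway, 3 of the 12 measured on both arrays of 6 h passed the 2-fold rule higher and none lower, and the background was 9.81% and 8.08%.

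**Figure D4:**
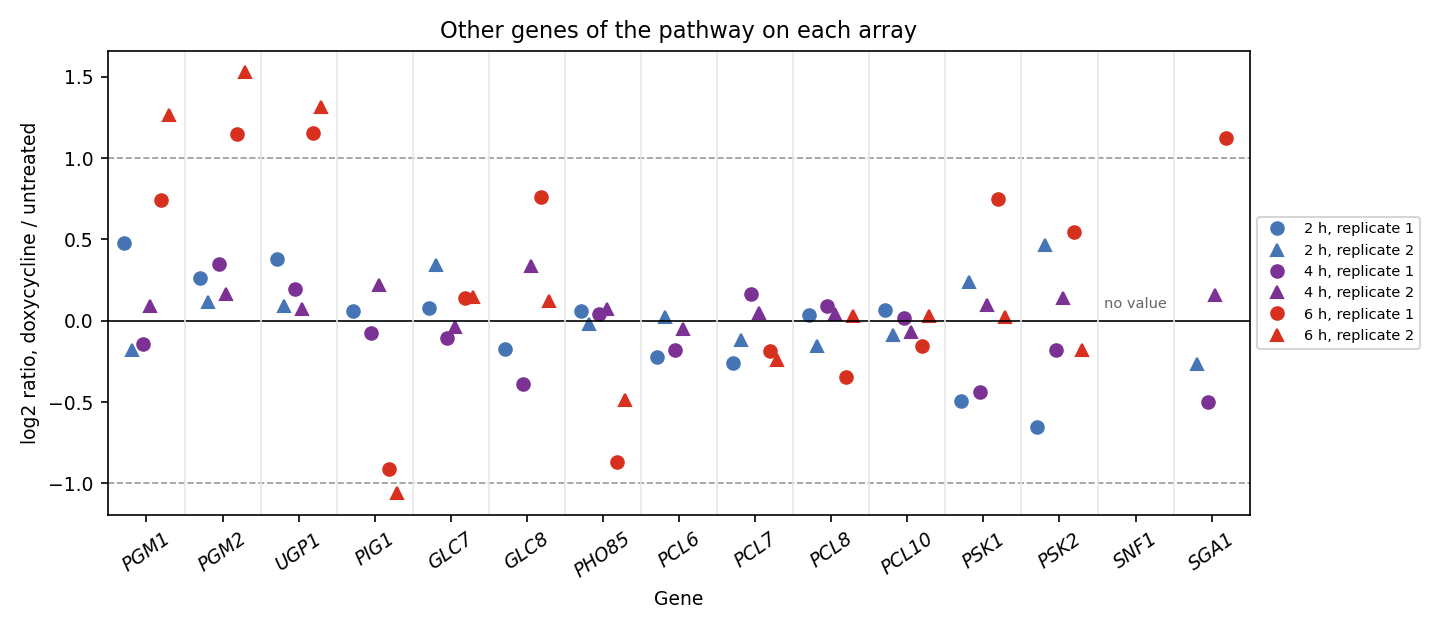
Log2 ratio of doxycycline over untreated cells (vertical axis) on each array for the 15 other genes of the pathway (horizontal axis), with circles for replicate 1, triangles for replicate 2 and colours for 2, 4 and 6 h. PGM1, PGM2 and UGP1 lie between 0.74 and 1.53 at 6 h, PIG1 at −0.91 and −1.06, and most kinase and cyclin points near 0.

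Genes with a profile close to the glycogen genes were sought over the 6 arrays, among 3378 genes with all values and outside the lists above. The measure was the Euclidean distance to the array-wise median of the members measured on each array, 3 to 7 of them, which was −0.02, 0.35, −0.11, 0.15, 1.10 and 0.94 in order of time and replicate. The nearest were LST4 (distance 0.22), PCL1 (0.26), TYW1 (0.27), LHS1 (0.28) and DCW1 (0.28), where the median distance of all candidates was 1.75. GSY2 itself was at 0.65, GDB1 at 0.57 and GLC3 at 1.05, and the named genes are nearer because they were picked as the nearest. LST4, TYW1 and LHS1 are 2433 to 2646 bp long, PCL1 840 bp and DCW1 1350 bp. LST4, LHS1 and DCW1 lie on chromosome XI, PCL1 on XIV and TYW1 on XVI. The members behind the median change from array to array, and GSY1, GAC1 and PIG2 enter it on replicate 1 of 6 h alone.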

How the data were processed

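Two-colour arrays of 6 hybridisations were used. The deposited values are log2 ratios of doxycycline over untreated RNA, 1 per identifier and array. No label states the log base, and every fold assumes log2. Per the labels, the authors left out spots with a diameter below 120 µm or an intensity below 100 units in Cy3 and Cy5. Normalization, spot averaging and the turning of swapped arrays are not given in the sources used here, and nor is a genome build, so no coordinates are given. Signal was not analysed here, so the depth is unknown, and precision is limited by how few arrays there are. One 2 h array has Cy3 for both channels in the labels and was taken as the dye swap.

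Of 6212 identifiers, 5662 matched an R64 gene in RefSeq, which gave symbols, chromosomes and lengths (annotated spans). Arrays of a time were averaged. limma 3.58.1 in R 4.3.3 (lmFit, eBayes, two-sided, Benjamini-Hochberg at 0.05 over 3391 genes with 6 values) tested the mean and the slope over 3 RNA pairs. It was also run on simulated data with 1 spread for all genes and times. In the real data the SD over genes of the mean was 0.165, 0.160 and 0.756 at 2, 4 and 6 h. The simulated run therefore cannot show how the test behaves on these data. The length curve was a lowess fit (span 0.3, 3 robust steps) on log2 length. Alternatives covered centring, scaling, length and chromosome, filters, dyes, units, variance and left-out arrays and times.

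All 10 members and 15 pathway genes were named whatever their values, and profile neighbours by distance. Members and lists were chosen with earlier results of these data known. Nothing in the labels says that the RNA pairs came from separate cultures, so p-values measure the spread between these samples alone.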

Additional observations from a re-analysis of the deposited data

Results flagged for a closer look

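The time effects of 3 genes around glycogen had opposite signs on all arrays of 2 times, and none of these differences was tested. GLC7 was above 0 on both arrays of 2 h, below on both of 4 h and above on both of 6 h, a difference of −0.28 from 2 to 4 h and of 0.21 from 4 to 6 h, but at 6 h it was −0.57 relative to genes matched on length and chromosome. PCL7, which encodes a Pho85 cyclin, was below 0, above and below again, with 0.29 from 2 to 4 h and −0.32 from 4 to 6 h, and at 6 h it was 0.19 relative to matched genes. PHO85 was above 0 on both arrays of 4 h and below on both of 6 h, a difference of −0.74, and its matched genes at 6 h were at −0.55 and −0.54. These 5 differences are among 47 pairs of times examined, and over all genes 14.4% of 11330 such pairs had opposite signs in this way. Of the 10 glycogen genes, only GLC3 had the same sign on both arrays at 2 times, 2 and 6 h, and it was above 0 at both. The others could not show such a difference, so its absence says nothing about them.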

How the results depend on the processing

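No member passed the limma test of the mean under any alternative run. With 4 h left out, 3 members passed the slope test (limma adjusted p = 1.52e-09 for GLC3, 0.000652 for GDB1 and 0.00589 for GSY2), but so did 1745 of 3391 genes, from 2 RNA pairs. No member passed the slope test under the other alternatives. At 2 and 4 h no member passed 2-fold under any setting. At 6 h the count of 1 became 2 with arrays centred, 0 with the length curve removed or the Cy3 arrays turned, 3 at 1.5-fold and 2 of 7 on replicate 1 relative to matched genes. Of all genes, 3.21% passed higher with the length curve removed, and 105 of 4453 were 2-fold higher on replicate 1 relative to matched genes. The counts with arrays centred or turned and at 1.5-fold have no share of all genes beside them, so they cannot be set against a background. Leaving out replicate 1 gave 1 of 3, where 12.3% of all genes were at least 2-fold higher on replicate 2 of 6 h. Leaving out replicate 2 gave 5 of 7, where 11% were on replicate 1. The 7 include GSY1, GAC1 and PIG2, which had a value on that array alone, so counts over them are not a fair sample. The 6 h median of 0.97 became 0.48 with the length curve removed, 0.49, 0.53 and 0.57 against 20, 10 and 40 matched genes, 0.42 on replicate 1 against matched genes, 0.22 with the Cy3 arrays turned and 1.08 as a mean, and ran from 0.94 to 1.10 with a replicate left out. The 0.42 and the 1.10 are over the same 7 members and share that limit. The 2 h median of 0.05 ran from −0.022 to 0.35 with a replicate left out. Against 10 and 40 matched genes, chosen after seeing the data as was replicate 1 alone, GSY2 was at 1.26 and 1.23 at 6 h and GLC3 at 0.16 and 0.57.

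Of all genes, 1 passed the test of the mean. The count was 8 with arrays scaled, 755 with the Cy3 arrays turned, 11 without 6 h and 0 against 20 or 40 matched genes, where 38 and 35 had an unadjusted limma p below 0.05. It was 2 against 10 matched genes, with the length curve removed, with a trended robust variance, without 2 h, without 4 h, and with 6 arrays as units with no block or with the dye as a term. The slope test called 2, then 10 without 6 h and 0 against matched genes, with the length curve removed or the Cy3 arrays turned. With the replicate block the 6 arrays gave 2 for the mean and 2 for the slope. Replicate numbers do not pair the samples. Same-numbered arrays deviated together at 2 and 4 h (r = 0.57) and oppositely at 6 h (r = −0.71 and −0.55), where the dyes run the other way round, and the fit with the dye as a term is the crossed pairing. Missing values limit statements on GSY1, GLG2, GPH1, GAC1, PIG2 and GIP2, and matching moved the single values of GAC1 from 1.21 to −0.025, PIG2 from 0.68 to 0.22 and GSY1 from 1.31 to 0.50.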
